A study of Mus with 5 samples.

Results

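The cell cycle and DNA replication genes described here are 45 named mouse genes, out of 21887 protein-coding genes in the gene table used, and their data are the ChIP-seq peaks whose annotation names them. By that rule they held 4 of 1172 RARα peaks in control cells, 0 of 597 RARα peaks with retinoic acid (RA), 109 of 15812 BATF peaks in control cells and 79 of 9899 BATF peaks with RA. No measured value entered the choice of the genes, although earlier results of these data were known when they were chosen. From the same ChIP-seq the paper already names Lig1 as bound by RARα and BATF without RA, and Mki67 as bound mainly by BATF. The peaks at these genes are therefore not independent of its report.

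ChIP-seq recovers the DNA fragments that an antibody pulls down with a protein, and a peak is a place where more fragments pile up than expected from a control antibody. WT CD8 T cells from mouse spleen, labelled as naive, received anti-CD3 together with anti-CD28 and IL-2 for 24 h, had a rest of 24 h in IL-2 at 100 U/ml, and then spent 1 h in 50 nM RA or in medium without it (control). Chromatin was then precipitated with anti-RARα, anti-BATF or normal rabbit IgG. The treatment label names a different interleukin in different samples, where the growth protocol names IL-2, and the labels do not say whether the IgG cells received RA. Each of the 4 lists was called on 2 pooled files against the same IgG file, so each condition is 1 list, no replicate spread can be given, and no difference below was tested. The pools held 22655611 fragments (RARα control), 22475060 (RARα RA), 23110180 (BATF control) and 16424269 (BATF RA), so the BATF RA pool had 71.1% of the depth of its control. Nothing in peak lists reports expression, so the labelled cell type could not be checked against marker genes.

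Before DNA is copied, CDC6 and CDT1 load the MCM helicase onto replication origins (licensing), and in S phase the GINS complex helps to activate it while polymerases, PCNA and DNA ligase copy and seal the strands. Entry into S phase is set by cyclin D with CDK4 or CDK6 and cyclin E with CDK2, which phosphorylate RB and so free the E2F factors, whereas cyclin A, cyclin B and CDK1, held back by WEE1 and released by CDC25 phosphatases, drive mitosis. RARα is a nuclear receptor that binds RA, BATF is an AP-1 family factor that pairs with JUN proteins and IRF4 in activated T cells, and these cells divide fast.

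In control cells RARα peaks named cell cycle genes in a share near that of all protein-coding genes. In the control list 4 of the 45 genes (8.89%) were named by a RARα peak, beside 7.18% of all protein-coding genes. These were Lig1, Mcm6, Top2a and E2f2, with 1 peak each. With RA none of the 45 was named, which allows a share of up to 6.67% of the genes, beside 3.19% of all protein-coding genes, and the 0 peaks of 597 allow up to 0.503% of the list.

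The site at Lig1, the DNA ligase that seals Okazaki fragments, stood well above the other 3. It lay on chromosome 7 from 13302406 to 13303309 (mm10), inside the gene, with 105 fragments at the summit, a fold enrichment over IgG of 17.8 and a −log10 p of 98.4, and it ranked 3 of 1172 RARα control peaks by fold. The deposited annotation gives its class as exon and its detail as intron 19 of 28.

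The RARα site of Mcm6, a subunit of the MCM helicase, was a promoter-class peak over the first exon, on chromosome 1 from 128359353 to 128359598, where 14 fragments gave a fold of 3.16. The other 2 sites were intergenic and far from the gene. The one naming Top2a, the topoisomerase that untangles chromosomes, (chromosome 11, 99104863 to 99105273) had 23 fragments at a fold of 3.02. It lay 80664 bp from the gene and names Ccr7, Tns4 and Igfbp4 too. The one naming E2f2, an S-phase activator of the E2F family, (chromosome 4, 136082087 to 136082343) had 16 fragments at a fold of 2.44, lay 89931 bp from the gene and names 4 other genes. The folds at Mcm6 and Top2a were close to the median of the whole control list, 3.09, and the one at E2f2 was below its lower quartile of 2.82. With a threshold of a fold of 5, or of a −log10 q of 2, Lig1 alone kept its RARα control peak.

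All 4 RARα sites had a BATF control peak within 5 kb (exact 95% interval 39.8 to 100%), beside 61.9% of all RARα control peaks. At each of the 4 it overlapped, which was not counted over all RARα control peaks. At Lig1 the BATF summit lay 9 bp from the RARα summit in the control list and 37 bp from it with RA, and the BATF fold was 6.42 and then 5.65. At Mcm6 it was 6.76 and then 11.04, and at the Top2a-named site 10.9 and then 8.46. The E2f2-named site had a BATF control peak of fold 4.28 and no BATF RA peak over it, the nearest being 6423 bp away. None of the 4 RARα sites had a RARα RA peak within 5 kb, which with 4 sites allows a share of up to 75% (10.2% of all RARα control peaks had one), and the nearest to any of them was 646320 bp away. BATF had a called peak with RA at 3 of the sites where RARα did not. How often this held over all RARα control peaks was not counted, so it is not set apart from the list.

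**Figure D1:**
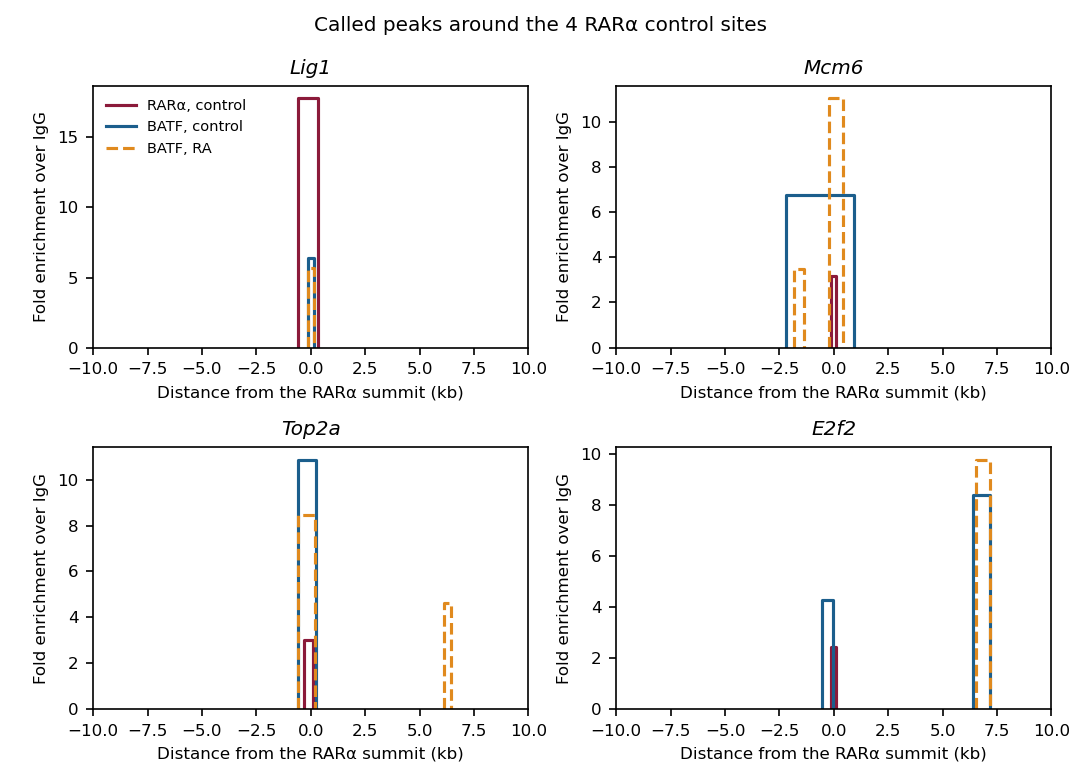
Called peaks within 10 kb of the 4 RARα control sites, drawn as boxes from start to end (x, distance from the RARα summit in kb) with the peak's fold enrichment over IgG as height (y); red is RARα control, blue BATF control and dashed orange BATF RA. RARα is the taller box at Lig1 (17.8 against 6.42 for BATF), and BATF is the taller at the other 3; no RARα RA peak falls in any window.

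Seen from BATF, 8 of the 109 BATF control peaks of these genes (7.34%, exact 95% interval 3.22 to 14.0) had a RARα control peak within 5 kb, beside 7.16% of all BATF control peaks. Besides the 4 sites above, 3 of these were promoter-class peaks of Ccnd2, the cyclin D2 gene, and 1 was an intergenic peak naming Aurkb. The RARα peak beside Ccnd2 (chromosome 6, 127154806 to 127155147) lay 2618 bp outside the gene and had 13 fragments at a fold of 2.95. The annotation gives it to 9330179D12Rik alone, so it is not among the 4. A BATF RA peak of fold 7.99 (127154515 to 127155277) spanned it. That BATF peak does not name Ccnd2 either, so the counts and folds of Ccnd2 leave it out.

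BATF peaks were found at nearly every cell cycle gene. In control cells 44 of the 45 genes (97.8%, exact 95% interval 88.2 to 99.9) were named by a BATF peak, beside 48.6% of all protein-coding genes, and with RA 43 (95.6%) were named, beside 38.3%. The same 44 and 43 genes had a BATF peak of the promoter class, beside 37.9% and 27.8% of all genes. Each of these genes had such a peak touching its own body, and at 39 of the 44 in the control list the summit of a promoter-class peak lay within 1 kb of an end of the gene. Neither count was made over all genes, so neither is set apart from the promoter class at large. The 45 genes are not long ones, with a median length of 15307 bp beside 17169 bp over all genes.

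The exceptions were both genes of nucleotide supply. Rrm2, the small subunit of ribonucleotide reductase, was named by no BATF peak with or without RA. The nearest lay 56195 bp (control) and 56279 bp (RA) from it and named Klf11. Tyms, thymidylate synthase, had 1 promoter-class peak in the control list only, on chromosome 5 from 30073031 to 30073580, of 27 fragments at a fold of 4.41. It was the 1 gene of 44 (2.27%) with BATF peaks in the control list and none with RA, beside 23.5% of all genes with a BATF control peak.

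The BATF peaks of these genes were also taller and wider than the typical peak. The median fold was 6.54 over the 109 control peaks, beside 5.40 over the whole list, and in the promoter class it was 8.59 beside 5.53, while in the other classes it was 5.73 beside 5.27. The median IgG level at the control summits was 5.00 fragments beside 4.56 over all control peaks, and 5.00 beside 5.00 in the promoter class. At the promoter-class summits of the RA list it was 3.60 beside 3.33. Both lists used the same IgG file, and its level is given on the scale of each list's depth. It is read at the summit of each list's own peak, so control and RA levels of a gene can come from different positions. Median width was 890 bp beside 609 bp. A fold of at least 20 was reached by 8 of the 109 control peaks (7.34%), beside 1.64% of the list, and by 6 of the 79 RA peaks (7.59%), beside 1.72%. The share in the promoter class itself was near that of the list, with 58 of 109 control peaks (53.2%) beside 58.7% and 53 of 79 RA peaks (67.1%) beside 64.6%. With a gene body within 10 kb of the peak in place of the annotation, the control share was 72.6%, beside 65.8% of the list's peaks within 10 kb of any protein-coding gene.

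The 8 control peaks of fold 20 or more were all of the promoter class. The tallest was at Plk1, the polo-like kinase of mitotic entry, on chromosome 7 from 122158643 to 122160867. Its fold was 42.2 in control cells (rank 23 of 15812) and 25.7 with RA. Scaled by depth, as fragments at the summit per 1000000 fragments of the pool (FPM), the same peak stood at 7.36 and 7.12 FPM. The IgG level was 3.00 fragments at the control summit and 3.60 at the RA summit. Fold and FPM thus put the Plk1 conditions at different distances. Next came Mcm7, another MCM helicase subunit, on chromosome 5 from 138170452 to 138172500, whose folds were 39.3 and 24.1 and whose depth-scaled heights were 6.84 and 4.38 FPM. This peak names Ap4m1 too.

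Wee1, the kinase that restrains CDK1, had folds of 28.4 and 21.8 and Bub1, a kinase of the spindle checkpoint, 26.0 and 19.0. Mki67, which encodes the proliferation marker Ki-67, had a promoter-class peak on chromosome 7 from 135713798 to 135716964, at folds of 25.6 and 23.8 and at 4.28 and 4.32 FPM. The cyclins Ccnb2 and Ccna2 had 24.9 and 20.5, and 24.0 and 24.9. E2f3, an activator E2F, had 20.1 and 13.9. All but Bub1 and E2f3 reached 20 in the RA list as well. Of the 8 genes, 6 belonged to the CDK1 switch or to mitosis.

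**Figure D2:**
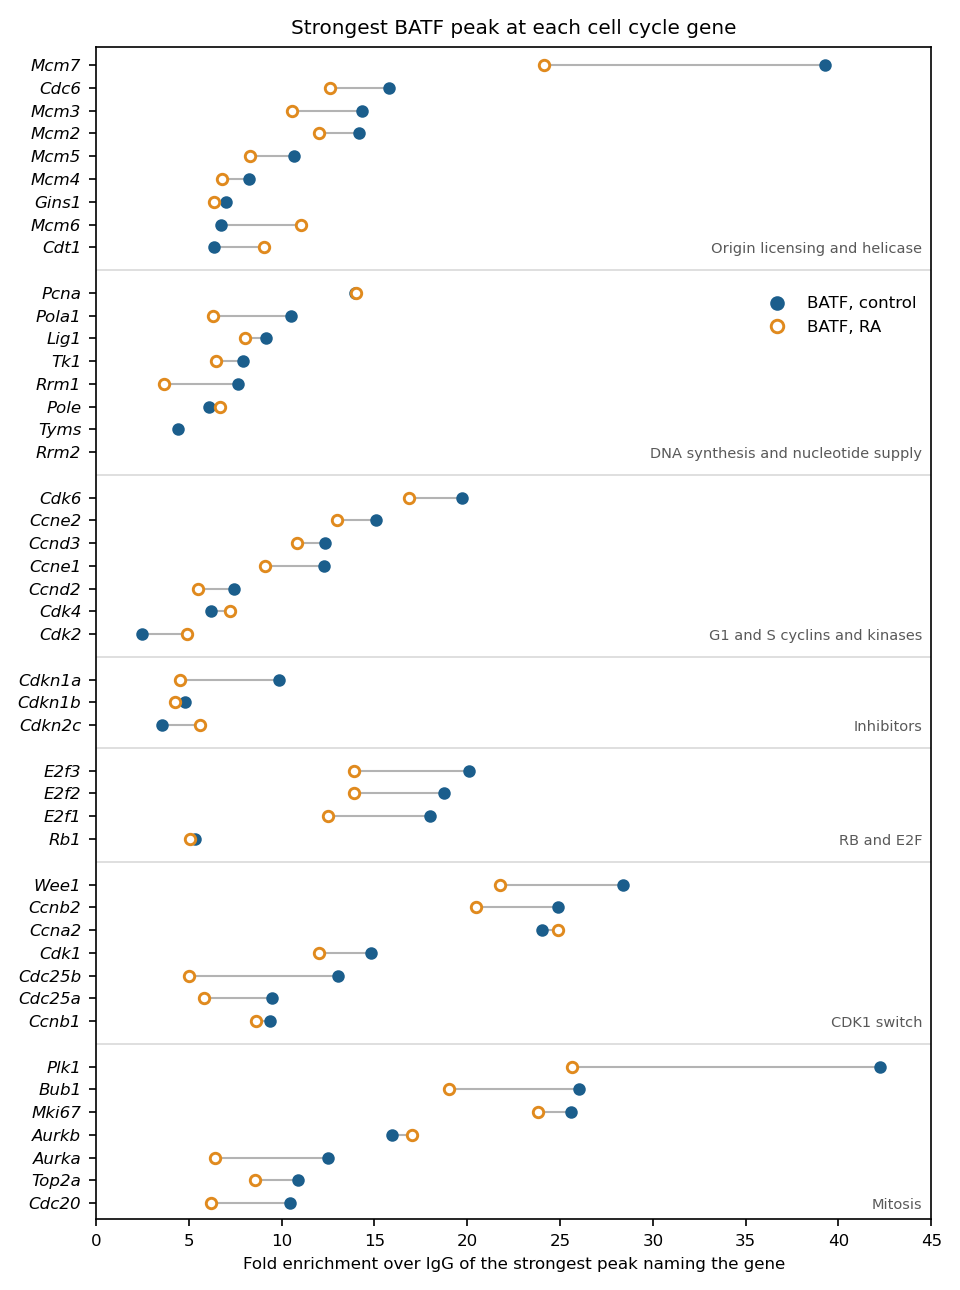
Fold enrichment over IgG (x) of the strongest BATF peak naming each of the 45 genes (y), by role; filled blue points are the control list and open orange points the RA list, and a gene without a point has no peak in that list. Plk1 (42.2) and Mcm7 (39.3) are the highest control points, and Rrm2 has no point.

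By role, the strongest BATF peak per gene had its highest medians among RB and E2F genes, mitotic genes and genes of the CDK1 switch, and its lowest among the inhibitors. Over all 44 genes the median strongest fold was 11.6 in the control list, beside 6.75 over all genes with a peak, and with RA it was 9.03 over 43 genes, beside 5.95.

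Among the 9 licensing and helicase genes all had BATF peaks in both lists, and the median strongest fold was 10.6 in each. The strongest fold was lower with RA at 7 of the 9, and the RA median was that of an intergenic peak naming Mcm3. Behind Mcm7 stood Cdc6, the origin loading factor, at 15.8 and then 12.6. Mcm3 followed at 14.3 and 10.6, from that intergenic peak, 62041 bp from the gene. It names 5 genes, Il17a and Il17f among them. The promoter peak of Mcm3 had 6.91 and 5.62. Mcm2 had 14.2 and 12.0. The remaining subunits Mcm5 (10.6 and 8.29) and Mcm4 (8.26 and 6.81) and the GINS subunit Gins1 (7.02 and 6.36) were lower. Cdt1, the partner of Cdc6 in loading, had 4 control peaks and 1 RA peak, and its promoter peak over the gene had a fold of 5.84 in control cells and 9.03 with RA. The IgG level was 11.0 fragments at the control summit of that peak (122567973) and 4.32 at its RA summit (122567761). The depth-scaled height of that promoter peak was 3.03 and 2.86 FPM, lower with RA where the fold was higher. At Mcm6, whose fold was higher with RA too, the IgG level was 12.0 fragments at the control summit (128359674) and 3.17 at the RA summit (128359547). The depth-scaled height there was 3.81 and 2.74 FPM. The fold and the depth-scaled height of Mcm6 thus differed in direction.

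Of the 8 genes for DNA synthesis and nucleotide supply, 7 had BATF control peaks and 6 had BATF RA peaks, with medians of 7.90 and 6.55. Pcna, the sliding clamp, was the highest, with a fold of 14.0 in both lists. The catalytic subunit genes of the polymerases stood at 10.5 and 6.28 for Pola1 and at 6.09 and 6.66 for Pole. The promoter of Lig1 had 9.14 and 8.003, above its intronic BATF site. Tk1, a thymidine kinase of the salvage route, had 7.90 and 6.45, and Rrm1, the large subunit of ribonucleotide reductase, 7.64 and 3.64. Tk1 also held the 1 BATF RA peak of the whole set without a BATF control peak within 5 kb, an intergenic peak of fold 3.75 that lay 52260 bp from the gene. The other 78 of the 79 RA peaks (98.7%) had one, beside 96.3% of all BATF RA peaks.

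The 7 G1 and S cyclins and kinases stood out by number of peaks, 36 in the control list and 25 with RA, with median strongest folds of 12.3 and 9.09. Ccnd3 and Cdk6, which had the most, are long genes of 94639 and 190005 bp, beside a median of 15307 bp over the 45. Peak number was not adjusted for gene length. In the whole set 10 of the 45 genes (22.2%, exact 95% interval 11.2 to 37.1) were named by 4 or more BATF control peaks, beside 7.72% of all genes, and 5 of those 10 were in this group. Ccnd3, the cyclin D3 gene, had 10 control peaks and 7 RA peaks, and 9 of the control peaks touched the gene. Its tallest control peak had a fold of 12.3. Cdk6, the cyclin D partner kinase, had 9 and 6, and its tallest was an intergenic peak on chromosome 5 from 3300921 to 3301474, 39530 bp from the gene and naming Cdk6 alone. That peak had folds of 19.7 and 16.9 (3.29 and 3.04 FPM), above the folds of 8.55 and 6.75 at the Cdk6 promoter.

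Ccne1, the cyclin E1 gene, had 5 control and 4 RA peaks, the tallest 11699 bp from the gene with folds of 12.3 and 9.09. Ccnd2 had 5 and 3, with 2 of the control peaks as far as 87476 and 93613 bp from the gene, and strongest folds of 7.43 and 5.48 at different sites. Cdk4, the other cyclin D partner kinase, had 4 and 3, with 3 of the control peaks 73766 to 83170 bp away and naming 14 to 16 genes each, while its promoter had 5.36 and 3.67. The group's other cyclin, Ccne2, had 15.1 and 13.0 at its promoter. Cdk2, the cyclin E partner kinase, had the lowest strongest fold of the 44 genes, 2.47, and 4.93 with RA. The depth-scaled Cdk2 height was 1.25 and 1.34 FPM. The IgG level was 11.0 fragments at the control summit (128705027) and 3.67 at the RA summit (128704850).

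**Figure D3:**
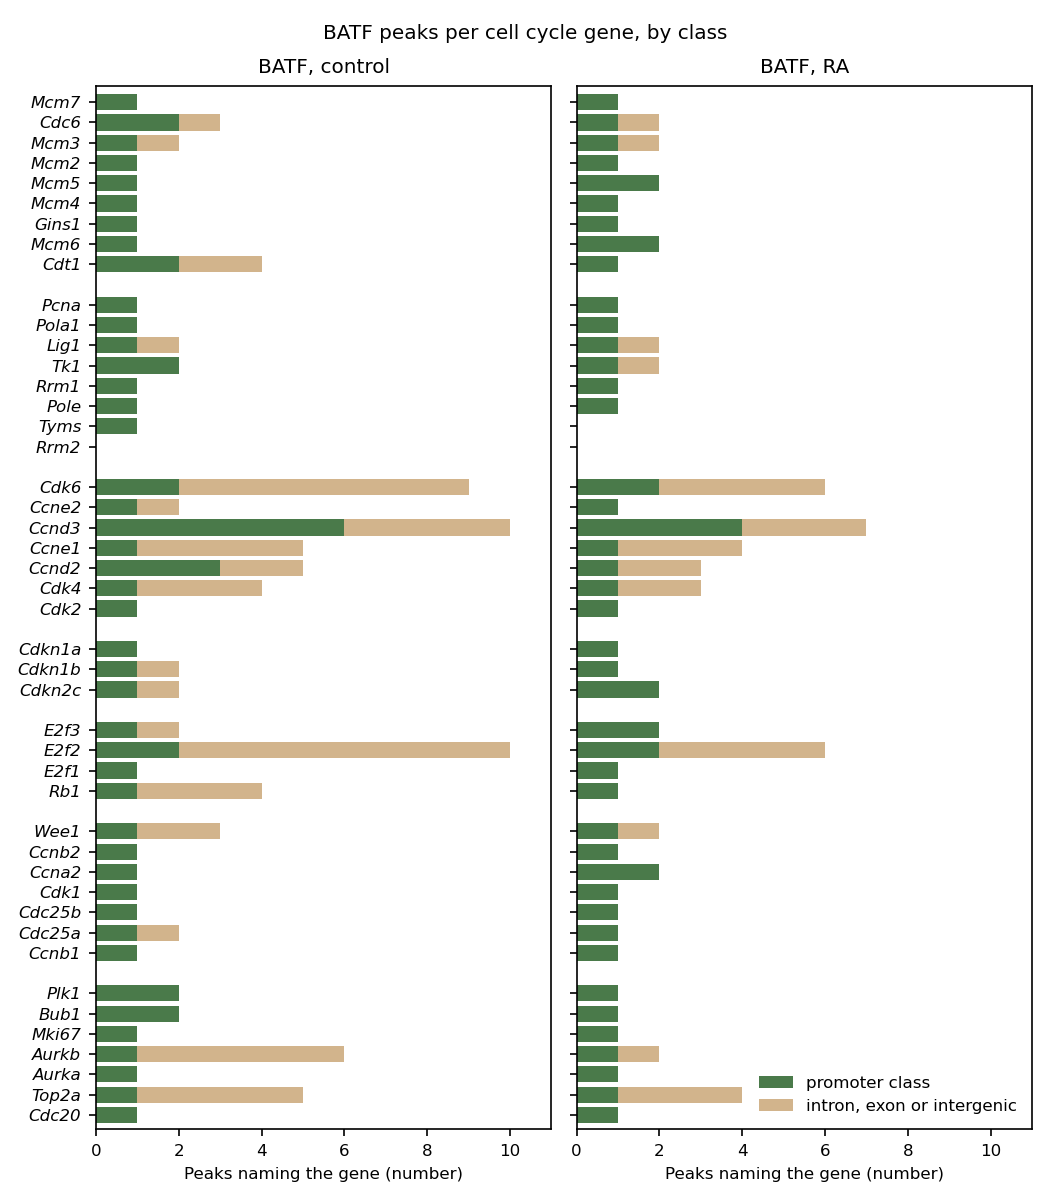
Number of BATF peaks naming each of the 45 genes (x) in the control list (left) and with RA (right), by class: green is the promoter class and tan is intron, exon or intergenic. Ccnd3 and E2f2 have 10 control peaks each, and the counts that are lower with RA are mostly in the tan part.

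The 3 inhibitor genes had the lowest group medians, 4.79 and 4.55. Cdkn1a (p21) stood at 9.88 in control cells and 4.55 with RA, with depth-scaled heights of 2.55 and 2.01 FPM. The IgG level was 5.00 fragments at its control summit and 6.48 at its RA summit. The Cdkn1a ratio of RA to control was thus 0.460 by fold and 0.787 by depth-scaled height. The others were Cdkn1b (p27) at 4.79 and 4.26 and Cdkn2c (p18) at 3.57 and 5.63. All 3 had a promoter-class peak in both lists. The intergenic control peaks that named Cdkn1b and Cdkn2c were not kept.

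The 4 RB and E2F genes had the highest control median, 18.4, and 13.2 with RA. Beside E2f3 stood E2f2, with folds of 18.8 and 13.9 at its promoter, and E2f1 with 18.0 and 12.5. E2f2 had 10 control peaks and 6 RA peaks. Of the 10, 5 lay on the gene and 5 were intergenic, at 23932 to 90073 bp from it and naming 3 or more other genes. The tallest of the intergenic ones had folds of 11.5 and 12.4. Rb1, the retinoblastoma gene, was unlike the E2Fs. Its promoter peak had folds of 5.33 and 5.04, and its 3 other control peaks, with folds of 2.77 to 3.77 and 68778 to 73717 bp from the gene, had their nearest RA peak at least 201795 bp away.

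All 7 genes of the CDK1 switch had promoter-class peaks in both lists, with medians of 14.8 and 12.0. After Wee1, Ccnb2 and Ccna2 came Cdk1 itself at 14.8 and 12.0. Cdc25b, a phosphatase that activates CDK1, had the lowest ratio of the set, with a fold of 13.0 in control cells and 5.00 with RA. Its depth-scaled height was 2.16 and 1.34 FPM. Cdc25a stood at 9.51 and 5.80, and Ccnb1, the cyclin B1 gene, at 9.38 and 8.61.

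The 7 mitotic genes had medians of 16.0 and 17.0, both of them the values of Aurkb. The strongest fold was lower with RA at 6 of the 7. Beside Plk1, Bub1 and Mki67, the kinase gene Aurkb had 16.0 and 17.0 at its promoter, and its relative Aurka had 12.5 and 6.42 at a promoter that it shares with Cstf1. Cdc20, an activator of the anaphase-promoting complex, had 10.5 and 6.22. Top2a had the promoter peak with the most fragments of the set in control cells, 182, and 106 with RA, where Plk1 had 117. The IgG level at the Top2a promoter was high, 17.0 fragments at the control summit and 11.5 at the RA summit. The folds there were 10.04 and 8.55, and the depth-scaled heights were 7.88 and 6.45 FPM. Aurkb had 6 control and 2 RA peaks and Top2a had 5 and 4. At both genes all but 1 of the control peaks were intergenic, and 1 of those at Top2a names Cdc6 as well.

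The comparison of BATF with and without RA asked which sites were still called. Of the 109 BATF control peaks, 90 (82.6%, exact 95% interval 74.1 to 89.2) had an RA peak within 5 kb, beside 69.9% of all BATF control peaks. The difference from the list lay in the promoter class, where 57 of 58 peaks were kept (98.3%, 90.8 to 100.0) beside 74.3%, and the exception was the peak at Tyms. In the other classes 33 of 51 were kept (64.7%, 50.1 to 77.6) beside 63.6%. When an RA peak had to overlap by at least 1 bp, 69 of 109 (63.3%) were kept beside 54.4%, and in the promoter class 47 of 58 (81.0%) beside 61.2%.

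The promoter peaks of these genes were also strong ones, and strong peaks were kept more often in the whole list. A −log10 p of 40 or more was reached by 29 of the 58, beside 918 of 9289 promoter-class peaks in the list. In that stratum 29 of 29 were kept beside 99.6%, and from 20 to 40 it was 13 of 13 beside 93.3%. Below 20 the numbers were small: 7 of 8 from 10 to 20, beside 69.2%, and 8 of 8 from 5 to 10, beside 52.2%. In the weakest stratum all but the Cdk2 peak were secondary peaks, at Plk1, Ccnd2, Ccnd3, Cdk6, Cdt1 and Tk1, that were matched to the RA peak of a neighbour. In all, the 90 kept control peaks were matched to 72 different RA peaks.

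**Figure D4:**
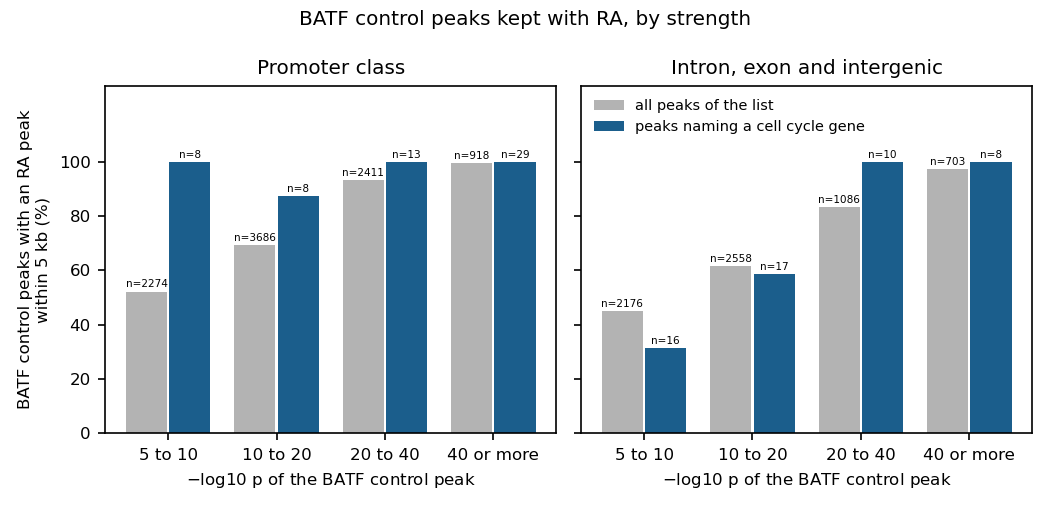
Share of BATF control peaks with a BATF RA peak within 5 kb (y, percent) by the −log10 p of the control peak (x), for the promoter class (left) and all other classes (right); grey bars are all peaks of the list, blue bars the peaks naming a cell cycle gene, and n is the number of control peaks. In the promoter panel 29 of the 58 blue peaks are in the strongest stratum, where 99.6% of all peaks were kept.

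The 19 control peaks that were not kept were spread over 13 genes. Rb1 had 3 of them, Aurkb, Cdk6, Cdt1 and E2f2 had 2 each, and Ccnd3, Ccne2, Cdc25a, Cdk4, Cdkn1b, Cdkn2c, Tyms and Wee1 had 1 each. All but the Tyms peak were intronic or intergenic. Their median fold was 4.28, beside 4.55 over all control peaks that were not kept and 7.53 over the 90 that were, and the tallest was an intronic Cdk6 peak of fold 7.42. Since the BATF RA pool was shallower, peaks below its detection and peaks absent from it cannot be told apart.

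At most genes with BATF peaks in both lists the fold was lower with RA, in a share close to that of all genes. The strongest peak per gene had a lower fold with RA at 34 of 43 genes (79.1%), beside 78.3% of all genes with BATF peaks in both lists, and the median ratio of RA to control was 0.816 beside 0.815. The depth-scaled height was lower at 36 of 43 genes (83.7%), beside 74.8%, with a median ratio of 0.840 beside 0.844. As pileup over the IgG level with no added constant, the value was lower at 32 of 43 (74.4%), beside 69.7%, with a median ratio of 0.869 beside 0.864. At 39 of the 43 genes the 2 strongest peaks overlapped, and at Ccnd2, Ccnd3, Cdt1 and Top2a they were different sites. This overlap was not counted over all genes. Of the 4, the strongest-peak FPM was higher with RA at Cdt1, Top2a and, at 2.12 against 2.13, Ccnd3. At the promoters of Cdt1 and Top2a it was lower with RA, 3.03 and 2.86 at Cdt1 and 7.88 and 6.45 at Top2a.

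Over the 90 kept peaks the fold was lower with RA at 54 (60%, 49.1 to 70.2), beside 66.9% of all kept peaks, and the median ratio was 0.885 beside 0.868. Over the 69 that overlapped their RA peak it was lower at 52 (75.4%), beside 75.5%, with a median ratio of 0.815 beside 0.827. The genes with the lowest ratios of strongest fold were Cdc25b (0.383), Cdkn1a (0.460), Rrm1 (0.477) and Aurka (0.513). Strongest folds above the control were seen at Cdk2, Mcm6, Cdkn2c, Cdt1, Cdk4, Pole, Aurkb, Ccna2 and, by a ratio of 1.00, Pcna. For Cdk4 the value is that of an intergenic peak 83170 bp from the gene that names 14 genes. At the Cdk4 promoter the fold was lower with RA, 5.36 and then 3.67. Of these only Cdk2, Aurkb and Ccna2 were above the control in FPM too at overlapping sites. The strongest-peak FPM of Cdt1 was also higher, but it compares 2 sites. At the Cdt1 promoter the FPM was lower with RA, 3.03 and then 2.86.

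**Figure D5:**
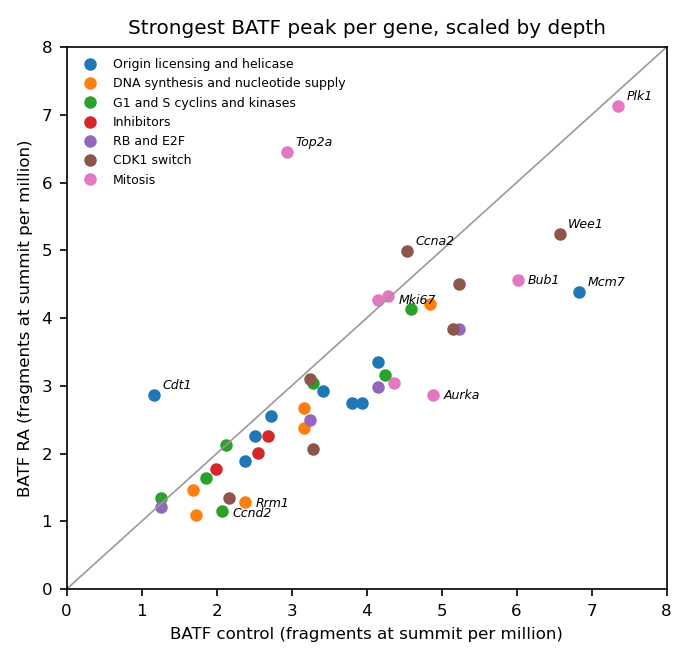
Fragments at the summit, scaled to 1000000 fragments of the pool (FPM), for the strongest BATF peak by fold at each of 43 genes, control list (x) against RA list (y), coloured by role; the grey line marks equal values. At 36 genes the point lies below the line, Plk1 is the highest on both axes (7.36 and 7.12), and at Top2a, Cdt1, Ccnd2 and Ccnd3 the 2 values come from different sites.

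A further 63 genes of the same pathways, none of them a member, were counted in the same way. BATF control peaks named 61 of the 63 (96.8%, beside 48.6% of all protein-coding genes), all but Ccnd1 and Cdkn1c, and BATF RA peaks named 54 (85.7%, beside 38.3%), with median strongest folds of 9.74 and 8.20. The 7 named by control peaks alone were Cdc7, E2f4, Gins4, Orc2, Orc3, Orc4 and Orc5, or 11.5% of the 61, beside 23.5% of all genes with a BATF control peak. Among the subunit genes of the origin recognition complex, Orc1 (16.6 and 13.2) and Orc6 (4.66 and 5.80) had BATF peaks in both lists. The tallest peaks of the 63 genes were at Mybl2, a MYB-family activator of late cell cycle genes, with folds of 38.5 and 42.3, and at the mitotic genes Cdc25c (34.5 and 25.5), Fbxo5 (33.5 and 23.2) and Kif11 (30.2 and 22.8). RARα control peaks named 4 of the 63 (6.35%, beside 7.18%), namely Cks2, Mybl2, Myc and Rpa1, and RARα RA peaks named 2 (3.17%, beside 3.19%), Fen1 and Ttk.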

How the data were processed

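The data are ChIP-seq peak lists for RARα and BATF from mouse CD8 T cells. The authors aligned paired-end reads with Bowtie2 and called peaks with MACS 2.2.7.1 on mm10. Each of the 4 lists rests on 2 pooled ChIP files and on the same IgG file, at a p-value cutoff of 0.001 (RARα) or 1e-05 (BATF). The pileup, a signal, gives fragments at the summit, and in the BATF control list each fragment adds 0.988 to it. The fold enrichment, as the authors' peak caller wrote it, is a ratio of pileup to local IgG level with 1 added to each, and the IgG level was recovered from both values on the scale of the list's depth. The significance of a peak was deposited as −log10 p-value and −log10 q-value. Although the file headers say that q-values were not calculated, the column holds values, and they served only as an alternative threshold. Gene names and classes of peaks are the authors' annotation.

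A peak belonged to a gene when the annotation named that gene, and each peak was counted once per list. A BATF control peak was counted as kept when a BATF RA peak lay within 5 kb, and the peak of nearest midpoint was its partner. Depth-scaled height (FPM) was the fragments at the summit per 1000000 fragments of the pool. Gene positions and lengths were read from RefSeq's gene table of GRCm38.p6 (mm10), which matched at least 99.1% of the names in each list. The background was its 21887 protein-coding genes, or every peak of a list. Intervals on shares are exact Clopper-Pearson 95% intervals and, like the limit for a count of 0 (3 counts of the total), cover counting error only. Whether the 2 pooled files are replicates is not stated, there is 1 list per condition, and no test was run. Depth ranged from 16424269 to 23110180 fragments.

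The members, role groups and other pathway genes were chosen with earlier results of these data known. Members described in full were those with a RARα peak, those whose strongest BATF control fold reached 20, those with 4 or more BATF control peaks, those with BATF peaks in 1 BATF list only, and Mki67 and Lig1. Alternatives were stricter thresholds, other assignments of peaks to genes, overlap by at least 1 bp, lists of equal length and other measures of strength. The matching of peaks between lists was tested on simulated data, and the assignment of peaks to genes was not. Sequences and motifs were not analysed here. The work used matplotlib 3.10.9, numpy 2.4.6, pandas 2.3.3 and scipy 1.17.1 under Python 3.11.15.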

Additional observations from a re-analysis of the deposited data

How the results depend on the processing

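Of 107 recomputed values 91 stayed close to the value given above and 16 moved, and the scoring could not mark any as reversed. Close meant a count of similar size, or a share or median inside the interval of the main value. Such intervals can be wide, for example 0 to 60.2% for RARα control peaks kept with RA. A fold of at least 5, and likewise a −log10 q of at least 2, left 1 RARα control peak at 1 gene, Lig1. Counting only the gene named first left 2 RARα control peaks at 2 genes, gave a share of BATF control peaks kept with RA of 90.5% (70.2% of all peaks whose first name is a protein-coding gene) and a promoter share of 68.9% (60.3%), and assigning peaks by a gene body within 10 kb gave a promoter share of 72.6% (65.8%). Requiring 1 bp of overlap gave 63.3% kept, 81.0% kept in the promoter class, a median fold ratio of 0.815 and a lower fold at 75.4% of kept peaks. Cutting the BATF control list to the length of the RA list gave 91.3% kept (81.8% of all peaks), 100% in the promoter class (84.9% of all) and a lower fold at 72.6%. The cause of these shifts beyond the fewer peaks or genes counted was not tested. Over all alternatives at least 40 of the 45 genes had a BATF control peak and at least 39 a BATF RA peak, and no gene had a RARα RA peak. The ratio without the added constant, and the alternatives for the promoter class and for the share with a lower fold, were chosen after seeing the data. No paired analysis was possible because pooling left a single list for each condition. The BATF RA pool held 71.1% of the control fragments, which limits the detection of weak peaks with RA, and intergenic peaks that name several genes may belong to none of them.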
